A study of Mus musculus with 23 samples.

Results

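The comparison described here asked whether D-cycloserine changed gene expression differently in the brain of Grin2b mutant mice and of wild-type mice. It is the genotype by DCS interaction: the DCS effect in mutants (DCS minus vehicle) minus the DCS effect in wild-type mice, each a difference of group means of log2(value + 1). All 23 libraries of the series enter it, and all genes with a mean normalised read count of at least 10 were tested, which were 17256 of 18848. A value of 0 means the same DCS effect in both genotypes, a negative value a lower DCS effect in mutants, and a positive value a higher one.

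All mice were C57BL/6J males at postnatal day 17. The 4 groups were wild-type with vehicle (WT vehicle, 6 libraries), wild-type with DCS (WT DCS, 5), heterozygous with vehicle (HT vehicle, 6) and heterozygous with DCS (HT DCS, 6). HT mice carry 1 mutant Grin2b allele, C456Y per the series title, and 1 normal allele. The labels give the agent as DCS alone, the usual abbreviation of D-cycloserine, with no dose, route or time before dissection, and give the tissue as brain, naming no region. Whether every library is a separate mouse is not stated, so a p-value here reflects the spread between libraries and that spread may be technical. Library totals after scaling were 32.3 M to 33.5 M normalised reads, from an estimated 25.6 M to 37.4 M reads before it. Libraries of 1 group correlated at 0.985 to 0.991 across genes. WT vehicle replicate 2 and WT DCS replicate 2 deviated from their group means in the same direction across genes (r = 0.30, against at most 0.15 for any other pair of libraries). Some values are therefore also given without these libraries.

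NMDA receptors are glutamate-gated calcium channels that open only when glutamate and a co-agonist, glycine or D-serine, are both bound. GluN1, encoded by Grin1, carries the co-agonist site, and GluN2 subunits such as GluN2B, encoded by Grin2b, bind glutamate; GluN2B predominates early in brain development. D-cycloserine is a partial agonist at the co-agonist site, and calcium entering through the channel is known to induce immediate early genes such as Fos, Arc and Npas4. The deposited table holds 1 value per gene and does not tell the alleles apart, so it does not check the genotype.

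No gene had an interaction that passed the test. limma called 0 of 17256 genes (0% called) at an adjusted p under 0.05, and the smallest adjusted p was 0.984. At an unadjusted p under 0.05 limma had 756 genes (4.38%), 398 with a higher DCS effect in HT (2.31%) and 358 with a lower one (2.07%), where 862.8 would be expected if no gene differed. The plot of p-values shows fewer genes in the lowest bin than in any other. DCS itself had 0 called genes in HT (smallest adjusted p = 0.222; 828 genes, 4.8%, at an unadjusted p under 0.05) and 0 in WT (smallest adjusted p = 0.888; 497 genes, 2.88%) in the same limma fit. Across genes the DCS effects in HT and in WT had a Pearson r of -0.04 and a Spearman rho of -0.06, described over 17256 genes that are not independent of each other, and both sets of effects had an SD of 0.17.

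**Figure D1:**
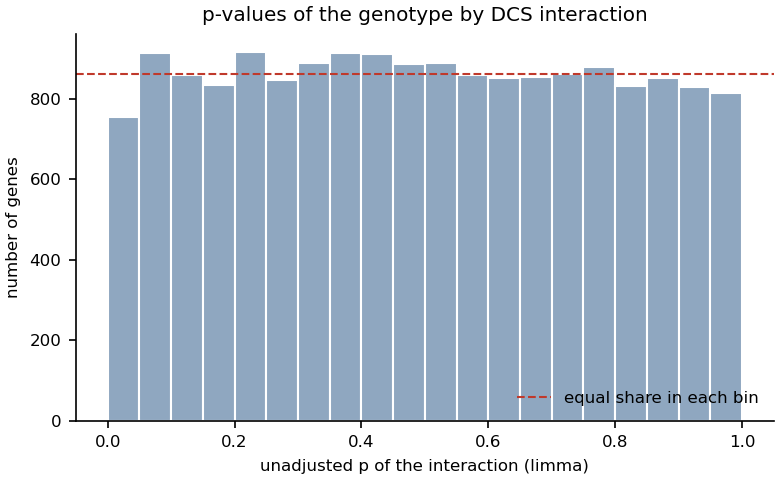
Number of genes (vertical axis) in each bin of unadjusted p of the interaction, from limma (horizontal axis, 0 to 1 in steps of 0.05), for all 17256 genes tested. The dashed line marks an equal share per bin (862.8 genes); the lowest bin holds 756 genes and the other bins between 814 and 916.

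The spread between libraries and their number set how large an unseen interaction could be. The standard error of the interaction had a median of 0.10 over all genes on the log2 scale, and its 95% interval a median half-width of 0.20. For 90.8% of genes the whole interval lay within 1 log2 unit of 0, and for 71.2% within 0.5. Among the 6534 genes whose mean reached 1000 these shares were 99.7% and 98.6%. Among the 4415 genes with a mean from 10 to 100 they were 66% and 8.47%, and the median half-width was 0.63, so interactions of 1 log2 unit lay inside the interval for many of these low genes. The 95% interval of a single gene takes no account of the number of genes tested.

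**Figure D2:**
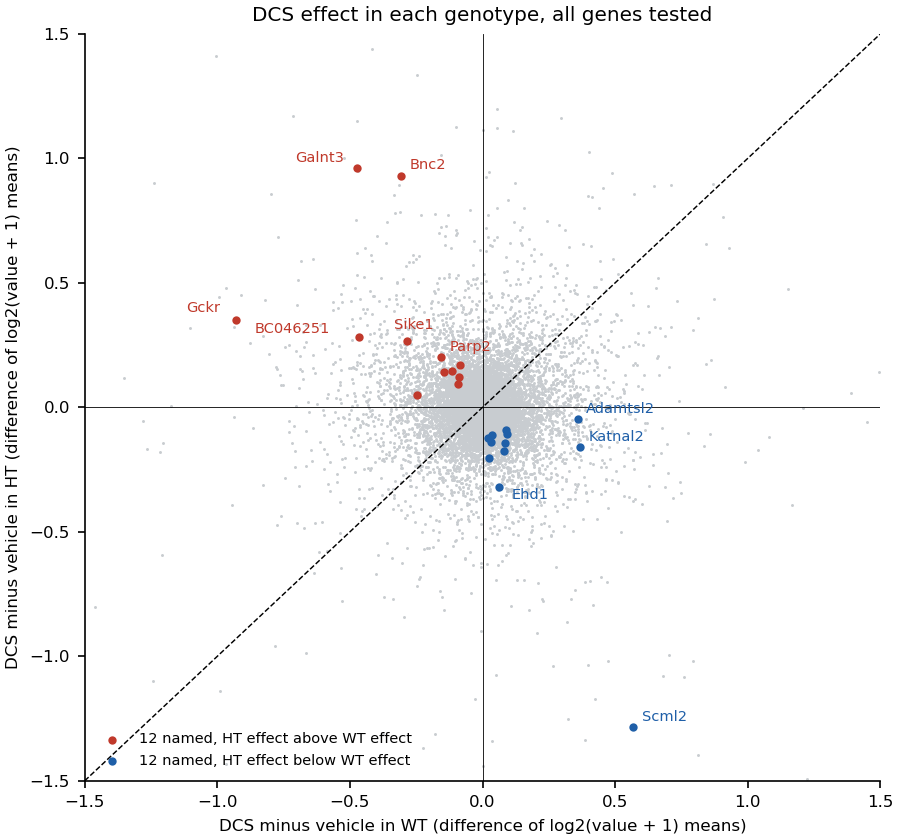
DCS effect in WT (horizontal axis) against DCS effect in HT (vertical axis), both as differences of mean log2(value + 1), 1 point per gene. The dashed line marks equal effects, colours mark the 12 named genes on each side, and 29 genes lie outside the axis limits of 1.5; the cloud is centred on 0 in both directions with an r of -0.04.

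The NMDA receptor subunits themselves showed no difference in their DCS effect that passed the test, and 0 of 7 had an unadjusted p under 0.05. Grin2b ranged from 16323 to 19269 normalised reads in WT vehicle (median 18038), and was 17347, 15207, 20202, 19371 and 21725 in the 5 WT DCS libraries. It ranged from 14618 to 19880 in HT vehicle (median 18934) and from 15564 to 20959 in HT DCS (median 19255). The 4 groups overlapped throughout, and the interaction was -0.01 (95% interval -0.26 to 0.25, limma, adjusted p = 0.996). Grin1, the obligatory subunit, had an interaction of 0.04 (95% interval -0.06 to 0.13). For Grin2a, which encodes GluN2A, the subunit that becomes prominent as the brain matures, it was -0.04 (-0.21 to 0.13), and for Grin2c, the cerebellar subunit gene, -0.10 (-0.25 to 0.05). Grin2d had 0.03 (-0.13 to 0.19) and Grin3a 0.05 (-0.12 to 0.22). Grin3b, the lowest of them at group means from 24.8 to 31.7 normalised reads, had -0.23 with a wide interval from -0.94 to 0.49. The list median was -0.01, against a median of -0.002 over all genes tested, and its sign changed when any of 11 single libraries was left out.

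Among the 12 genes with the smallest p on the lower side, every one had a lower mean with DCS than with vehicle in HT and a higher mean with DCS in WT. This pattern was not used as a result, because a difference of effects picks out genes whose effects have opposite signs: 97.8% of all genes with an unadjusted p under 0.05 had them, against 53.3% of all genes tested. The smallest p belonged to Ehd1 (chr19:6276725-6300096, plus strand), an ATPase that shapes endosomal membranes for the recycling of receptors to the cell surface. Ehd1 ranged from 1915 to 2216 normalised reads in WT vehicle (median 2052) and was 2390, 2143, 2132, 1911 and 2161 in WT DCS. It ranged from 2054 to 2546 in HT vehicle (median 2330.0) and from 1688 to 2161 in HT DCS (median 1793). All 6 HT DCS libraries lay below the HT vehicle mean of 2325, but the highest of them lay above the lowest HT vehicle library. The interaction was -0.38 ± 0.09 (SE; limma, unadjusted p = 0.00016, adjusted p = 0.984), made of -0.32 in HT and 0.06 in WT, and it lay between -0.42 and -0.34 when any single library was left out.

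Scml2, an X-linked Polycomb group gene best known from the germ line, had the lowest value of the 12. It ranged from 11.4 to 48.01 normalised reads in WT vehicle (median 22.99) and was 32.6, 60.0, 31.4, 21.7 and 44.6 in WT DCS. It ranged from 36.1 to 75.7 in HT vehicle (median 42.7) and from 13.1 to 27.9 in HT DCS (median 17.1). HT DCS and HT vehicle libraries did not overlap, which held for 22 of all genes tested (0.127%), while the WT groups overlapped widely. The interaction was -1.85 ± 0.43 (SE; limma, adjusted p = 0.984), at a level where a few reads move the value; without WT vehicle replicate 2 and WT DCS replicate 2 it was -1.47. Tmed9, a p24 family receptor that carries cargo between endoplasmic reticulum and Golgi, was much tighter. Mean and SD over the libraries of a group (n = 6, and 5 for WT DCS) were 2283 ± 72.2 for WT vehicle and 2431 ± 79.3 for WT DCS, against 2444 ± 102 for HT vehicle and 2270 ± 49.96 for HT DCS. Each pair of DCS and vehicle groups overlapped, and the interaction was -0.20 ± 0.05 (SE; limma, adjusted p = 0.984).

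The other 9 genes on the lower side had interactions between -0.53 and -0.14, all with an adjusted p of 0.984 in limma. Tbc1d15 (-0.23) is a regulator of the late endosomal GTPase Rab7, Slc39a7 (-0.18) a zinc transporter of the endoplasmic reticulum, and Gpr162 (-0.14) an orphan receptor. Katnal2 (-0.53) is a katanin-like protein that acts on microtubules and Dynll2 (-0.14) a dynein light chain. Adamtsl2 (-0.41) encodes a secreted matrix protein, Cab39l (-0.26) a scaffold of the kinase LKB1, and Mbd3 (-0.17) a subunit of the NuRD chromatin complex. Of the 12 genes, 4 had HT DCS and HT vehicle libraries without overlap (Scml2, Rps6, Gpr162 and Tbc1d15) and 0 had WT groups without overlap; these counts follow from the choice of genes by the same contrast. For Slc39a7, 76.8% of its 31-base transcript words also occur in transcripts of the readthrough model Gm20427, so reads could be split between them.

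**Figure D3:**
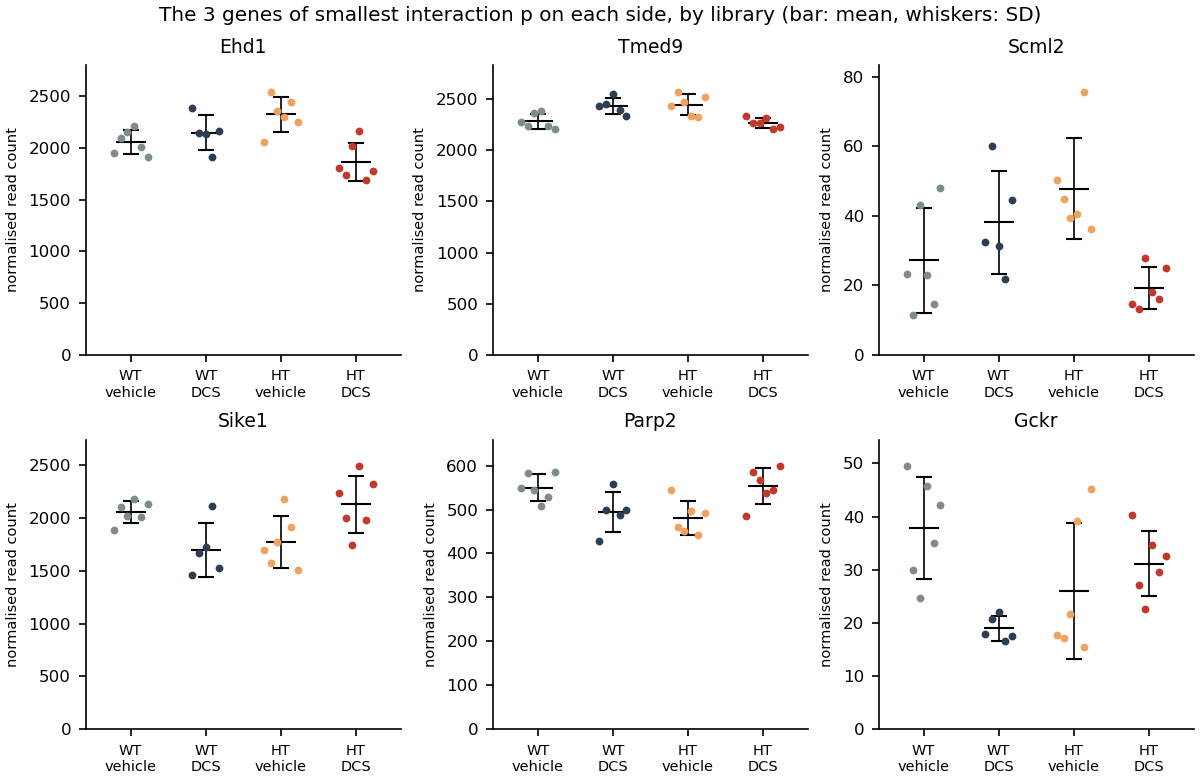
Normalised read count (vertical axes, from 0) of the 3 named genes with the smallest interaction p on the lower side (top row) and on the higher side (bottom row), 1 point per library in the 4 groups, with the mean and SD. HT DCS libraries of Scml2 (13.1 to 27.9) lie below all HT vehicle libraries (36.1 to 75.7), and WT DCS libraries of Gckr (16.5 to 22.1) below all WT vehicle libraries (24.6 to 49.6), while the groups overlap in the other panels.

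Rps6, which encodes a protein of the small ribosomal subunit that is phosphorylated below mTOR, had the fourth smallest p on the lower side, and its value was paired with that of a processed copy. Mean and SD were 4146 ± 195 for WT vehicle and 4218 ± 328 for WT DCS, against 4331 ± 194 for HT vehicle and 3759 ± 197 for HT DCS, and the interaction was -0.23 ± 0.06 (SE; limma, adjusted p = 0.984). Of its 31-base transcript words, 45.0% occur in transcripts of 28 other genes, chiefly the pseudogene Rps6-ps4, which had an interaction of 1.62 in the opposite direction. Over the 23 libraries the deviations of the gene and the copy from their group means had r = -0.76 and rho = -0.72. The sum of both was 4966 in WT vehicle, 4965 in WT DCS, 4880 in HT vehicle and 4878 in HT DCS, with an interaction of -0.0006. The value of Rps6 alone is therefore uncertain, since reads of the shared stretch could have been assigned to either.

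On the higher side, the 12 genes with the smallest p all had a higher mean with DCS in HT and a lower mean with DCS in WT. Sike1, a suppressor of the antiviral kinases IKKε and TBK1, ranged from 1889 to 2179 normalised reads in WT vehicle (median 2062) and was 1463, 1671, 1729, 2110 and 1522 in WT DCS. It ranged from 1503 to 2184 in HT vehicle (median 1734) and from 1743 to 2495 in HT DCS (median 2119). Both pairs of groups overlapped, with 4 of 5 WT DCS libraries below the WT vehicle mean and 5 of 6 HT DCS libraries above the HT vehicle mean. The interaction was 0.55 ± 0.13 (SE; limma, adjusted p = 0.984), made of 0.26 in HT and -0.29 in WT. Parp2, a poly(ADP-ribose) polymerase of DNA repair, had a mean and SD of 550.0 ± 30.1 for WT vehicle and 494 ± 45.6 for WT DCS, against 481 ± 38.3 for HT vehicle and 553 ± 41.1 for HT DCS. Its groups overlapped in both genotypes, and its interaction was 0.36 ± 0.09 (SE; limma, adjusted p = 0.984).

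Gckr, the regulator that holds glucokinase inactive in liver, was low in all groups. It ranged from 24.6 to 49.6 normalised reads in WT vehicle (median 38.7) and was 17.9, 20.8, 22.1, 16.5 and 17.5 in WT DCS. It ranged from 15.4 to 45.2 in HT vehicle (median 19.7) and from 22.5 to 40.2 in HT DCS (median 31.1). The WT groups did not overlap, as for 57 of all genes tested (0.33%), whereas the HT groups did. The interaction was 1.28 ± 0.33 (SE; limma, adjusted p = 0.984). Galnt3, which starts mucin-type O-glycan chains, and Bnc2, a zinc finger protein of mesenchymal cells, were similarly low, with interactions of 1.43 and 1.24. Without WT vehicle replicate 2 and WT DCS replicate 2 these were 1.74 and 1.04. Galnt3 had means of 37.3 and 26.4 in WT vehicle and WT DCS, and of 24.3 and 47.9 in HT vehicle and HT DCS. The remaining 7 genes had interactions between 0.18 and 0.75 and an adjusted p of 0.984 in limma: BC046251, a long intergenic noncoding RNA (0.75), Mapre1, which encodes the microtubule plus-end protein EB1 (0.29), Ccdc106 (0.29), Zmym6 (0.26), Ajap1, a protein of adherens junctions (0.26), Fbxl6, an F-box protein (0.21), and Mmab, the adenosyltransferase of vitamin B12 (0.18). The size could differ between the libraries numbered 1 to 3 and those numbered 4 to 6: BC046251 had 1.19 and 0.23, and Fbxl6 0.07 and 0.35.

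Genes were next described by lists of pathways, cell types and brain regions, with no test of a list. Of 39 lists, 27 had a median interaction below 0, and 61.8% of the 731 list entries lay below 0, against 50.7% of all genes tested. At an unadjusted p under 0.05 the lists held 33 entries (4.51%), a share near the 4.38% of all genes. The members of some lists vary together between libraries, and some genes stand in several lists. Neither the members nor the lists can therefore be taken as independent counts. The lists described are the 5 with the lowest and the 5 with the highest medians, the receptor, co-agonist and early gene lists, and a hindbrain list for the tissue taken.

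**Figure D4:**
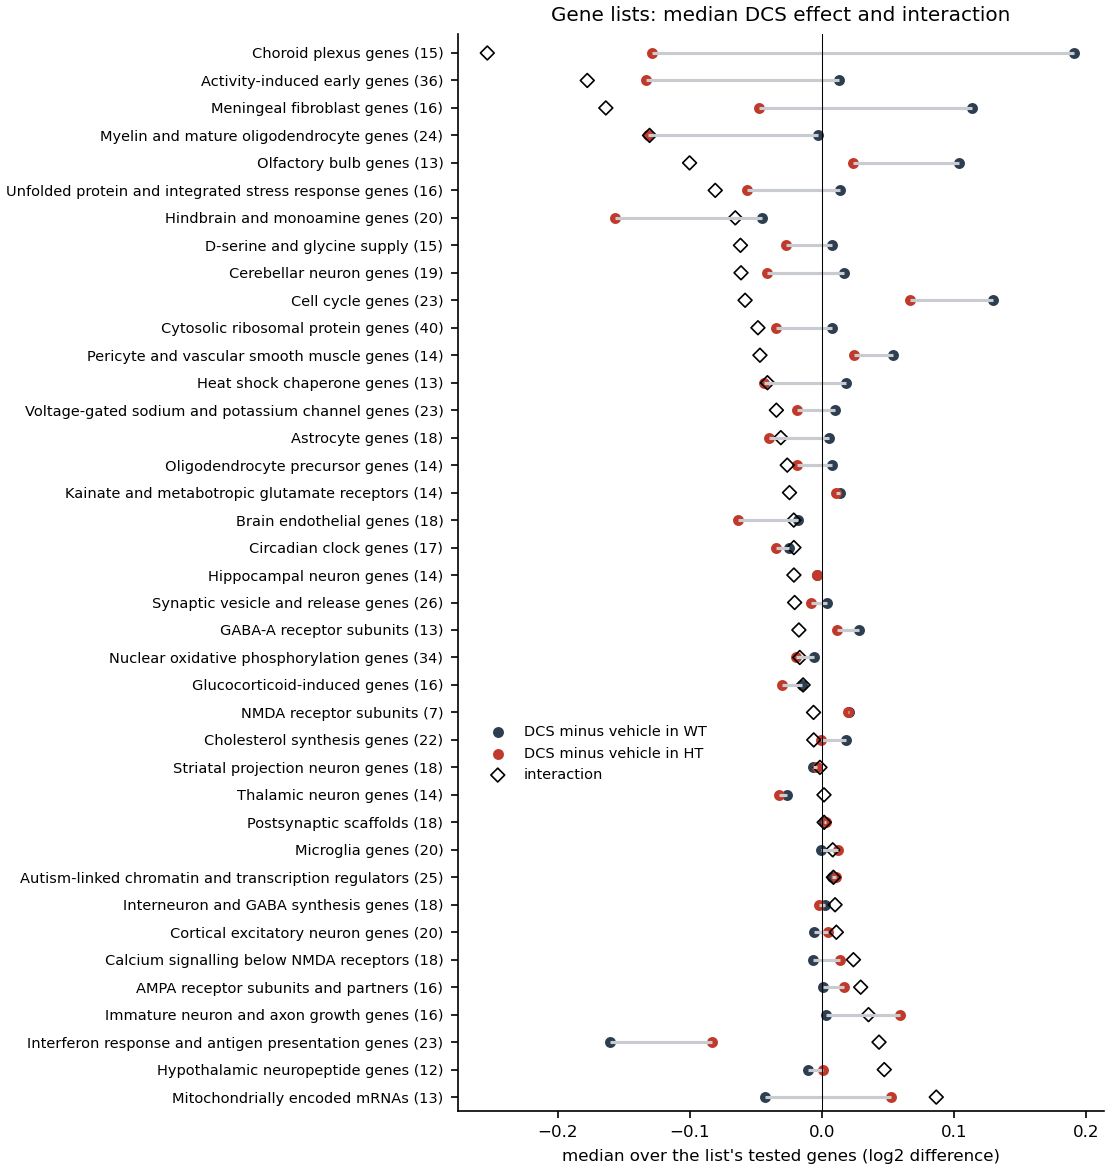
Median log2 difference over the tested genes of each of 39 lists (number of genes in parentheses), for DCS minus vehicle in WT, DCS minus vehicle in HT and the interaction (diamonds). Choroid plexus genes lie lowest at -0.25 and mitochondrially encoded mRNAs highest at 0.09, while NMDA receptor subunits and postsynaptic scaffolds lie within 0.01 of 0.

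Genes that supply or remove the co-agonists of the NMDA receptor included 1 of 15 with an unadjusted p under 0.05, against 4.38% of all genes tested. This was Dao, D-amino acid oxidase, the enzyme that degrades D-serine. Dao ranged from 94.2 to 137 normalised reads in WT vehicle (median 111) and was 115, 152, 149, 119 and 116 in WT DCS. It ranged from 125 to 156 in HT vehicle (median 144) and from 84.0 to 134 in HT DCS (median 117). The groups overlapped in both genotypes, and the interaction was -0.59 ± 0.18 (SE; limma, unadjusted p = 0.00275, adjusted p = 0.984). Without WT vehicle replicate 2 and WT DCS replicate 2 it was -0.48. Slc7a10, a D-serine transporter of astrocytes, and Slc6a9, the glycine transporter GlyT1, had interactions of -0.15 and -0.13. Srr, serine racemase, which makes D-serine, had 0.08. The list had 11 of 15 members below 0 and a median of -0.06 (-0.03 without HT DCS replicate 4), and its members did not vary together between libraries (median pairwise r of -0.0009 over 23 libraries).

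AMPA receptor subunits and their auxiliary proteins, which carry most fast excitatory transmission, had 10 of 16 members above 0 (49.3% of all genes tested), a median of 0.03 and 0 members with an unadjusted p under 0.05. The median was 0.0055 without HT DCS replicate 5 and 0.0041 in libraries numbered 1 to 3. The 3 with the smallest p were Shisa7 (0.11), an auxiliary subunit of the Shisa family, and Cacng5 (0.10) and Cacng3 (0.08, and 0.04 without WT DCS replicate 2), which belong to the family of transmembrane AMPA receptor regulators. The 4 pore subunits Gria1 to Gria4 lay between -0.06 and 0.06, values looked up after the list was described.

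Activity-induced early genes, which neurons induce rapidly after calcium entry, had 34 of 36 members below 0, where 50.7% of all genes tested lay, yet 0 members reached an unadjusted p under 0.05. The list median was -0.18, beside median DCS effects of -0.13 in HT and 0.01 in WT. These genes varied widely and together between libraries: the list mean ran from 9.25 to 9.97 in WT vehicle, from 9.45 to 9.93 in WT DCS, from 9.38 to 9.996 in HT vehicle and from 9.31 to 9.90 in HT DCS on the log2 scale. All 4 groups overlapped, 5 of 6 HT DCS libraries lay below the HT vehicle mean, and 3 of 5 WT DCS libraries lay above the WT vehicle mean. The median pairwise correlation of the members' deviations was 0.47, so the members are not independent counts, and without WT vehicle replicate 4 the list median was -0.09. The members with the smallest p were Crem (-0.23), a cAMP-responsive repressor, Ier5 (-0.19) and Pcsk1 (-0.11), a prohormone protease; without HT vehicle replicate 3, Ier5 had -0.12 and Pcsk1 -0.07. Chosen after their values were seen, Arc, an effector of AMPA receptor endocytosis, had -0.62 ± 0.54 (SE), Fos -0.37 ± 0.57 and Npas4 -0.05 ± 0.37 in limma, each smaller than or near its own standard error.

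Promoters of these early genes are shown because many are known to be driven by the factor CREB through the cAMP response element. RefSeq promoters on GRCm38.p6 were found for 27 of the 36 genes, and the full element TGACGTCA, which reads the same on both strands, was searched in the 250 bases before the start. It was in 5 of 27 (18.5%), against 478 of 27025 genes of that table (1.77%). The 3 with the lowest interaction among those 5 are printed with the element in capitals: Dusp1, a phosphatase of MAP kinases, lies on chr17:26508568-26508655 (minus strand), Maff, a small Maf factor, on chr15:79347451-79347519 (plus strand), and Btg2, an antiproliferative gene, on chr1:134079274-134079361 (minus strand).

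Dusp1: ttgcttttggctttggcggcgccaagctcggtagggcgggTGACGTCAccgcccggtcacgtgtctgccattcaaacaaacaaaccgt
Maff: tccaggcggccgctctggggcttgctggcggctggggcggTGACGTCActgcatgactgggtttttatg
Btg2: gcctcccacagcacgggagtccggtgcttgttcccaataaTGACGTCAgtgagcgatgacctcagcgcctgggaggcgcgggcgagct

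The element begins 143, 29 and 166 bases before the start of Dusp1, Maff and Btg2, whose interactions were -0.30, -0.29 and -0.23. The other genes with the element, Pcsk1 and Plk2, had -0.11 and -0.02. The 5 genes with the element had a median interaction of -0.23 and the 22 matched genes without it -0.17. A match of letters is a description of the sequence and does not show that a factor binds there.

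Choroid plexus genes had the lowest median of the 39 lists, at -0.25, with -0.13 in HT and 0.19 in WT. Of 15 members, 13 lay below 0 and 4 had an unadjusted p under 0.05, all on the lower side (2.07% of all genes tested). Folr1, the folate receptor that carries folate into cerebrospinal fluid, ranged from 43.1 to 64.8 normalised reads in WT vehicle (median 51.2) and was 50.7, 104, 59.3, 55.8 and 107 in WT DCS. It ranged from 48.1 to 94.0 in HT vehicle (median 74.5) and from 38.5 to 63.8 in HT DCS (median 54.3). WT DCS replicates 2 and 5 stood above every other library, and the interaction was -0.88 ± 0.29 (SE; limma, adjusted p = 0.984). Kcne2, a potassium channel subunit of the epithelium, had -0.77, and Kl, which encodes the FGF23 co-receptor klotho, had -0.40. Without WT vehicle replicate 2 and WT DCS replicate 2, Kcne2 had -0.57 and Kl -0.30. The fourth, Clic6 (-0.48), was named after its value was seen. Ttr, the thyroid hormone carrier made by this epithelium, had -0.29 ± 0.25 (SE).

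The amount of choroid plexus RNA differed between libraries of the same group. Its summed normalised reads ran from 21237 to 25254 in WT vehicle, from 19985 to 32310 in WT DCS, from 20970 to 28180 in HT vehicle and from 17592 to 26280 in HT DCS, and the members varied together (median pairwise r = 0.42). Without WT DCS replicate 2 the list median was -0.12, without WT vehicle replicate 2 and WT DCS replicate 2 it was -0.13, and without WT DCS replicate 1 it was -0.39. In bulk tissue, fewer cells of a type and less RNA per cell cannot be told apart.

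Meningeal fibroblast genes, which mark the membranes around the brain, had 13 of 16 members below 0, a median of -0.16 and 0 members with an unadjusted p under 0.05. The smallest p values belonged to Igfbp2 (-0.24), Crabp2 (-0.28) and Mgp (-0.15), which encode a binding protein of insulin-like growth factors, a retinoic acid binding protein and an inhibitor of calcification. Crabp2 had -0.17 without WT DCS replicate 2 and -0.14 without WT vehicle replicate 2 as well, and Mgp had -0.09 without HT DCS replicate 6 and -0.01 in libraries numbered 1 to 3. Without WT vehicle replicate 3 the list median was -0.09. The list median was -0.28 in libraries numbered 1 to 3 and -0.006 in those numbered 4 to 6. Igf2 is a member of both this list and the choroid plexus list.

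Myelin and mature oligodendrocyte genes had 20 of 24 members below 0 and a median of -0.13, beside median DCS effects of -0.13 in HT and -0.003 in WT. Mag, an adhesion protein of the inner myelin layer, had a mean and SD of 15027 ± 602 for WT vehicle and 15696 ± 869 for WT DCS, against 14930.0 ± 1685 for HT vehicle and 13356 ± 1362 for HT DCS. Both pairs of groups overlapped, and the interaction was -0.22 ± 0.10 (SE; limma, adjusted p = 0.984). Of the list, 2 members had an unadjusted p under 0.05 (4.38% of all genes tested), Mag among them. Mbp, a main structural protein of myelin, had -0.07. The members moved as a block between libraries (median pairwise r = 0.77). HT DCS replicate 6 had the lowest list mean of all 23 libraries (11.73, against 11.96 to 12.43 in the others), and without it the list median was -0.04; without HT DCS replicates 5 and 6 it was -0.004.

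HT DCS replicates 5 and 6 also stood apart in hindbrain and monoamine genes, which mark the caudal brainstem or monoamine neurons. Their list means were 4.97 and 5.17, against 5.68 to 6.53 in the other 21 libraries. Of the 23 list genes measured, which include those under the filter, 4 were at 0 in at least 1 library. The list had 13 of 20 tested members below 0 and a median of -0.07. This median was 0.06 without HT DCS replicate 5, 0.26 without HT DCS replicates 5 and 6, and 0.01 without WT vehicle replicate 2 and WT DCS replicate 2. With the mean of this list as a covariate, limma again called 0 genes, with 761 at an unadjusted p under 0.05 (smallest adjusted p = 0.988). The part of unequal tissue in the list values was not tested further. Markers of cortex (20 of 20 genes), striatum (18 of 18), hippocampus (14 of 14) and cerebellum (19 of 19) all passed the filter. Olfactory bulb genes passed as well and had 10 of 13 members below 0 and a median of -0.10 (-0.04 without HT DCS replicate 5). Their median DCS effect was 0.02 in HT and 0.10 in WT. The DCS effect was below 0 for 5 of 13 members in HT (50.7% of all genes tested) and for 1 in WT (49.7%). This list had 0 members with an unadjusted p under 0.05 and was led by Reln, Doc2g and Sp8 at -0.11, -0.17 and -0.17. Doc2g shares 58.9% of its 31-base words with Gm49405, so its value is uncertain, and it had -0.11 without HT DCS replicate 6. Without WT vehicle replicate 2 and WT DCS replicate 2, Sp8 had -0.10.

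**Figure D5:**
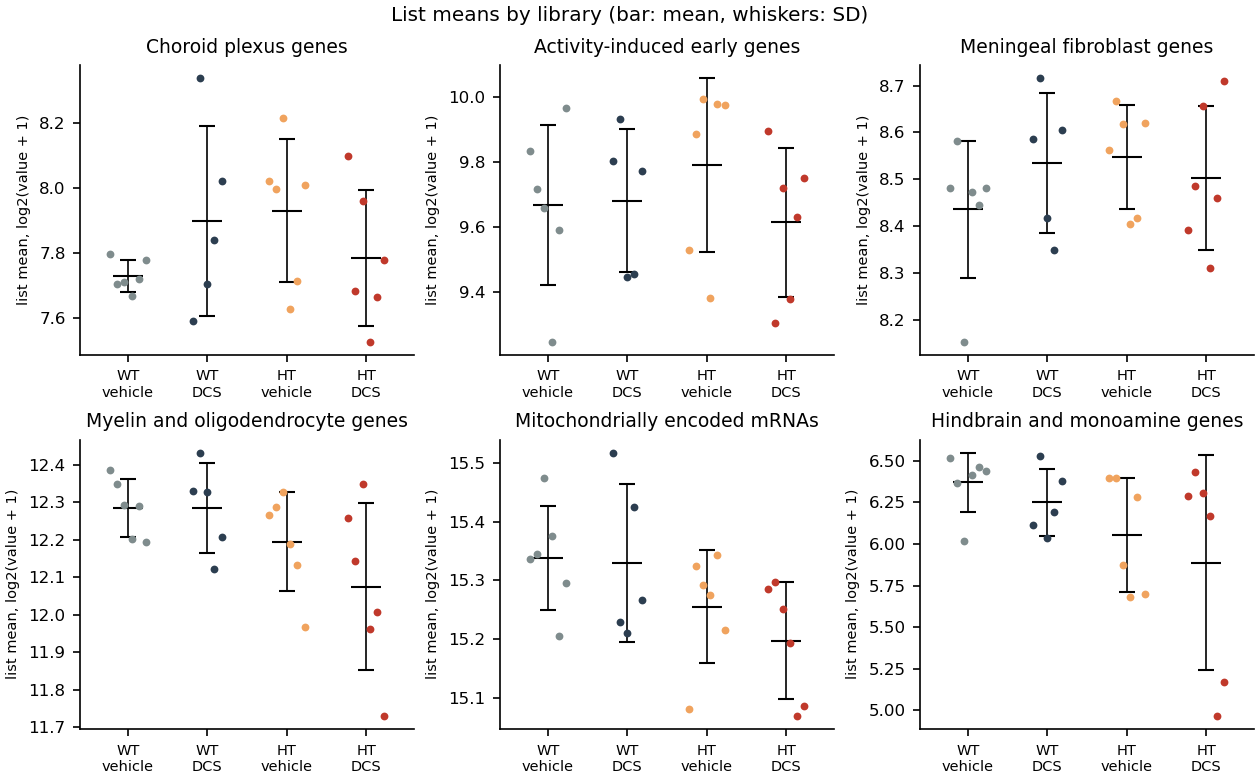
Mean log2(value + 1) over the genes of 6 lists (vertical axes, not starting at 0), 1 point per library in the 4 groups, with the mean and SD. All DCS and vehicle groups overlap; HT DCS replicate 6 is lowest for myelin genes (11.73), HT DCS replicates 5 and 6 are lowest for hindbrain genes (4.97 and 5.17), and WT DCS replicate 2 is highest for choroid plexus genes (8.34).

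On the positive side, mitochondrially encoded mRNAs had the highest median, 0.09, with 11 of 13 members above 0. Their median DCS effects were 0.05 in HT and -0.04 in WT. mt-Nd1 and mt-Nd5, subunits of respiratory complex I, had an unadjusted p under 0.05, as did 4.38% of all genes tested. mt-Nd1 had means of 144920 in WT vehicle, 137400 in WT DCS, 134630 in HT vehicle and 142160 in HT DCS, with an interaction of 0.16 ± 0.06 (SE; limma, adjusted p = 0.984), and mt-Nd5 had 0.12 ± 0.05. In libraries numbered 1 to 3 mt-Nd1 had 0.34 and mt-Nd5 0.22, against -0.03 and 0.02 in those numbered 4 to 6. Other genes share 16.8% of the 31-base words of mt-Nd5. The list was uneven: its mean interaction was -0.05, opposite in sign to its median. The lowest member was mt-Co3, at -1.45 ± 0.96 (SE). Of its 31-base words, 99.9% occur in transcripts of 3 other genes, chiefly the nuclear copy Gm28437. The deviations of mt-Co3 and Gm28437 had r = -0.90 over 23 libraries, and the sum of both had an interaction of 0.02. The list median was 0.22 in libraries numbered 1 to 3 and -0.06 in those numbered 4 to 6, so its direction was not shared between these sets of libraries.

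Immature neuron and axon growth genes had 12 of 16 members above 0 and a median of 0.04, which was 0.0037 without HT DCS replicate 6 and 0.10 without WT DCS replicate 4. Gap43, a growth cone protein, had 0.17 and Sox4, a factor of new neurons, 0.12 (0.06 without WT DCS replicate 2). Neurod1, also abundant in cerebellar granule cells, was the 1 member with an unadjusted p under 0.05 (4.38% of all genes tested), at -0.17. Hypothalamic neuropeptides had 7 of 12 above 0, with a median of 0.05 but a mean of -0.03. This median was 0.0046 without WT vehicle replicate 2 and WT DCS replicate 2, 0.0050 without WT vehicle replicate 3, and -0.11 in libraries numbered 4 to 6. Its members with the smallest p were Cartpt (-0.27) and Pomc (-0.51), both related to feeding, and Tac2 (0.18), which encodes neurokinin B. Interferon response and antigen presentation genes had 16 of 23 above 0, a median of 0.04 and 0 members with an unadjusted p under 0.05; Ifit2 and Irf9 had 0.13 and 0.15 (Irf9 0.09 without WT vehicle replicate 2). In this list the DCS effect was below 0 for 17 of 23 members in HT (50.7% of all genes tested) and for 21 in WT (49.7%), and the sign of its median interaction changed without WT vehicle replicate 3 and without WT DCS replicate 4 (-0.04 in the latter); without WT vehicle replicate 4 the median was 0.13.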

How the data were processed

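Polyadenylated RNA of mouse brain was sequenced from stranded libraries, per the labels' protocols. The authors deposited 1 table of decimal values that are never negative, a signal that behaves as read counts after scaling. Tools named without a role in the submitters' processing notes are DESeq2 1.26.0, Salmon 1.1.0 and R 3.6.2, with the build GRCm38; annotation release and filters: not given in the sources used here. Low values lie near multiples of a step per library, the worth of 1 read, but a share of only 58.0% to 77.5% of them (at most 5 steps) came within 0.15 of one, so whole reads were not recovered and count tests were not applied. The design provided limma for this case.

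limma 3.58.1 in R 4.3.3 was fitted to log2(value + 1) for every gene whose mean reached 10, with 1 coefficient per group, a mean trend and robust empirical Bayes. Tests are two-sided, with Benjamini-Hochberg adjustment at 0.05 over all genes, and were tested on simulated data. A difference on this scale understates changes of low genes. Since totals were made alike, the table cannot show a change in total RNA. Named genes are the NMDA receptor subunits, 12 genes per direction with the smallest p, leaving out predicted models, and up to 3 members of each described list; a few items chosen this way are not reported here. The interaction, the lists and the alternatives were chosen with earlier results of these data known. Coordinates come from GENCODE M21 and promoters from RefSeq. Alternatives changed the variance settings, scaling, filter, pseudocount, replicate block, library weights and libraries included. One added later left out WT vehicle replicate 2 and WT DCS replicate 2.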

Additional observations from a re-analysis of the deposited data

Results flagged for a closer look

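In 13 of 176 groups of libraries, 1 library lay far from the others of its group by Dixon's test, which flags about 1 group in 20 by chance (8.8 of these). Of the 13, 4 were in HT vehicle replicate 6. There Grin2b was at 14618 normalised reads (18075 to 19880 in the other 5 libraries), Grin2a at 4614 (5806 to 6300), Ccdc106 at 1136 (886 to 959), and the AMPA receptor list mean at 11.82 (11.87 to 11.89) on the log2 scale. Leaving this library out gave limma 1138 genes at an unadjusted p under 0.05, the most of any single library, and 0 called genes.

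Others lay in WT vehicle. Dynll2 was at 18990.0 in replicate 4 (19617 to 19834), Zmym6 at 1389 in replicate 2 (1106 to 1203), and in replicate 3 the hindbrain list mean was 6.02 (6.36 to 6.52) and the meningeal list mean 8.15 (8.45 to 8.58). In WT DCS, Grin2a was at 5519 in replicate 2 (5855 to 5907) and Grin3b at 44.8 in replicate 3 (23.2 to 27.7). In HT vehicle, Scml2 was at 75.7 in replicate 5 (36.1 to 50.2) and the interferon list mean at 6.99 in replicate 2 (6.52 to 6.66). In HT DCS, Katnal2 was at 104 in replicate 3 (85.2 to 91.5).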

How the results depend on the processing

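limma called 0 genes for the interaction under every alternative run except 1. With only description numbers 4 to 6 it called 1 gene for the interaction and 1 for DCS in WT, both Eif4ebp3 (interaction adjusted p = 0.0115), a gene named after its values were seen. From WT DCS this set held only the libraries with description numbers 4 and 6, the latter titled replicate 5. For DCS in HT, leaving out 1 library gave 0 to 1 called genes, the 1 being Ehd1 without HT vehicle replicate 1 or without HT DCS replicate 4. Genes with an unadjusted p under 0.05 for the interaction numbered 615 to 1138 with 1 library left out, 1058 with array weights, 1287 with numbers 1 to 3 and 637 with numbers 4 to 6. With the replicate block by the number in the titles there were 845 and 0 called (smallest adjusted p = 0.869), and by the number in the descriptions 867 and 0 called. Whether the numbers pair the libraries was not tested. By title number, 33 same-numbered pairs from different groups had correlations from -0.07 to 0.30, with a median of 0.015. By description number they ran from -0.11 to 0.30 with the same median, and 8 of 23 libraries correlated best with their own number. Differently numbered pairs had a median of -0.003 under both numberings. Among named genes, signs reversed with numbers 1 to 3 for Grin1 (-0.017) and Grin3a (-0.084), with numbers 4 to 6 for Grin2a (0.011), Grin2d (-0.029), Sp8 (0.057), Tac2 (-0.019), mt-Nd1 (-0.027), mt-Atp8 (-0.029) and Slc6a9 (0.020), and with the replicate block by the titles for Grin2b (0.018). With 1 library left out, Grin2b ran from -0.079 to 0.049 and Grin2d from -0.0087 to 0.077. The cause was not tested. No scaling alternative changed the sign of a described list's median. Low genes were the least precise: with means from 10 to 100 the median standard error was 0.31, against 0.06 from 1000 upward.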

Other observations

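Unfolded protein and integrated stress response genes had 14 of 16 members with an interaction below 0 (50.7% of all genes tested) and a median of -0.08. In limma 2 members had an unadjusted p under 0.05 (4.38% of all genes tested). They were Hspa5, the chaperone BiP of the endoplasmic reticulum (-0.22), and Sdf2l1, its partner in the same compartment (-0.30). Heat shock chaperone genes had 12 of 13 below 0 with a median of -0.04, and cytosolic ribosomal protein genes 29 of 40 below 0 with a median of -0.05; besides Rps6, whose reads are uncertain, Rps18 (-0.10) and Rps3 (-0.15) had an unadjusted p under 0.05. Cell cycle genes had 17 of 23 below 0 and a median of -0.06, with DCS effects of 0.07 in HT and 0.13 in WT. Synaptic vesicle genes had 20 of 26 below 0 with a median of only -0.02. Calcium signalling genes below NMDA receptors were on the other side, with 14 of 18 above 0 and a median of 0.02, and postsynaptic scaffolds were evenly split, 9 above and 9 below.

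Among regional markers, cerebellar neuron genes had 15 of 19 below 0 and a median of -0.06, with Fat2, a cadherin of granule cells, at -0.25. Cortical excitatory neuron genes had a median of 0.01, with 2 members of opposite direction at an unadjusted p under 0.05 (4.38% of all genes tested). They were Ccn2, a marker of the subplate (-0.25), and Fezf2, a determinant of subcortical projection neurons (0.20). Striatal projection neuron genes had a median of -0.001, with Syndig1l (0.20) and Rgs9 (0.18), a regulator of dopamine signalling, on the higher side. Dlx6, a factor of interneuron development, had 0.26. These members were named after their values were seen, and each had an adjusted p of 0.984 in limma.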
